A study of Mus musculus with 24 samples.

Results

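Lungs of C57BL/6J and BALB/c mice were compared directly 72 h after intratracheal bleomycin. The comparison used 4 of the 24 arrays in the series: 2 arrays of C57BL/6J lung and 2 arrays of BALB/c lung, all taken 72 h after 1.5 U per kg of bleomycin. They were chosen by strain, treatment and time as given in the sample titles. No saline array enters the difference taken at 72 h. Its standard errors and p-values, however, use a spread estimated over all 24 arrays, the saline arrays included. To separate differences that the strains also showed without the drug, 4 further arrays were used: C57BL/6J and BALB/c lungs 14 d after saline, 2 arrays each. Strain differences 24 h and 14 d after bleomycin, again with 2 arrays per strain, are given beside them. The saline arrays of 24 h, also 2 per strain, were used as another baseline without the drug. The labels give neither age nor sex of the mice and do not say whether the arrays a and b of a group came from separate animals. Every p-value therefore measures only the spread between arrays, which may be technical.

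Bleomycin is an antitumour drug that breaks DNA, and its instillation into the airways injures the alveolar epithelium, draws in inflammatory cells and is followed by scarring. C57BL/6 mice are known to develop more fibrosis after bleomycin than BALB/c mice, which is why the strains are set against each other. In the first days after instillation the lung is in its inflammatory phase, with macrophages, interferon-induced genes and injured epithelium among the responders, and collagen deposition comes later.

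The array was an Affymetrix mouse expression array and each value is the linear intensity of a probe set. The log2 values of the array pairs correlated at 0.975 for C57BL/6J and 0.979 for BALB/c at 72 h, and at 0.954 for C57BL/6J and 0.978 for BALB/c after saline. Markers of lung tissue were present: Ager, of alveolar type 1 cells, read 6781 and 6537 in C57BL/6J lungs and 4248 and 7454 in BALB/c lungs at 72 h. On saline array b of C57BL/6J, Ager read 443 and the club cell gene Scgb1a1 read 335, against 4056 for Ager and 3118 for Scgb1a1 on array a, so those saline arrays differed in epithelial genes. The ratio of the 3′ to the 5′ control probe sets of Gapdh, a sign of RNA integrity, was 0.771 and 0.743 on the C57BL/6J arrays at 72 h, against 1.55 and 1.28 on the BALB/c arrays. After saline it was 0.762 and 0.583 in C57BL/6J lungs and 0.763 and 0.744 in BALB/c lungs. The ratio thus moved with strain at 72 h, and its part in the results below was not tested.

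At 72 h, C57BL/6J lungs had more arginase (Arg1), xanthine dehydrogenase (Xdh), Clca3a1, Sprr1a and some interferon-induced transcripts (Rsad2, Isg15) than BALB/c lungs, and less of the cardiac muscle transcripts Myh6, Myh7 and Ckmt2. Myh6 and Myh7 were also lower in C57BL/6J lungs 24 h after saline. Among genes, by their brightest probe sets, the differences with the highest absolute log2 values, in Pdxdc1, H2-Ea and Gbp2b, were called on the saline arrays as well. Fn1, Tgfb1, Acta2 and the tested genes of the collagen list were not called at 72 h, where 1.62% of all genes were called. Of 8710 probe sets tested, 143 were called, 87 higher and 56 lower in C57BL/6J, at an adjusted p under 0.05 in limma. That is 1.64% of the probe sets, and 949 had an unadjusted p under 0.05. Leaving out 1 of the 4 arrays left 63 calls without C57BL/6J array a, 54 without C57BL/6J array b, 56 without BALB/c array a and 67 without BALB/c array b.

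After saline, 1291 probe sets were called between the strains, or 14.8%, with 761 higher and 530 lower in C57BL/6J. The standard deviation of the log2 difference over all probe sets was 0.37 at 72 h and 0.53 after saline. The saline count was lower whichever of these saline arrays was left out, and it fell least without C57BL/6J array b. The change of the strain difference, meaning the 72 h difference minus the saline difference, was called for 322 probe sets, or 3.7%. Treatment and time of harvest alter together in that change and cannot be told apart.

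The 143 probe sets were divided by these tests. In 62 the strain difference was called after saline in the same direction and its change was not called, and these are the differences already present on the 14 d saline arrays. In 19 the change was called and the difference was larger at 72 h or turned round. In 2, the probe sets of Gsto1 and Cap1, the change was called and the difference was smaller at 72 h. For the other 60 neither the saline difference nor the change passed, so whether they were already present could not be resolved. With 1 probe set per gene, the counts were 42, 13, 2 and 48 of 105 genes called among 6464, or 1.62%. Probe sets called at 72 h and, in the same direction, after saline numbered 65, which is 45.5% of the 72 h calls and 5.03% of the saline calls.

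**Figure D1:**
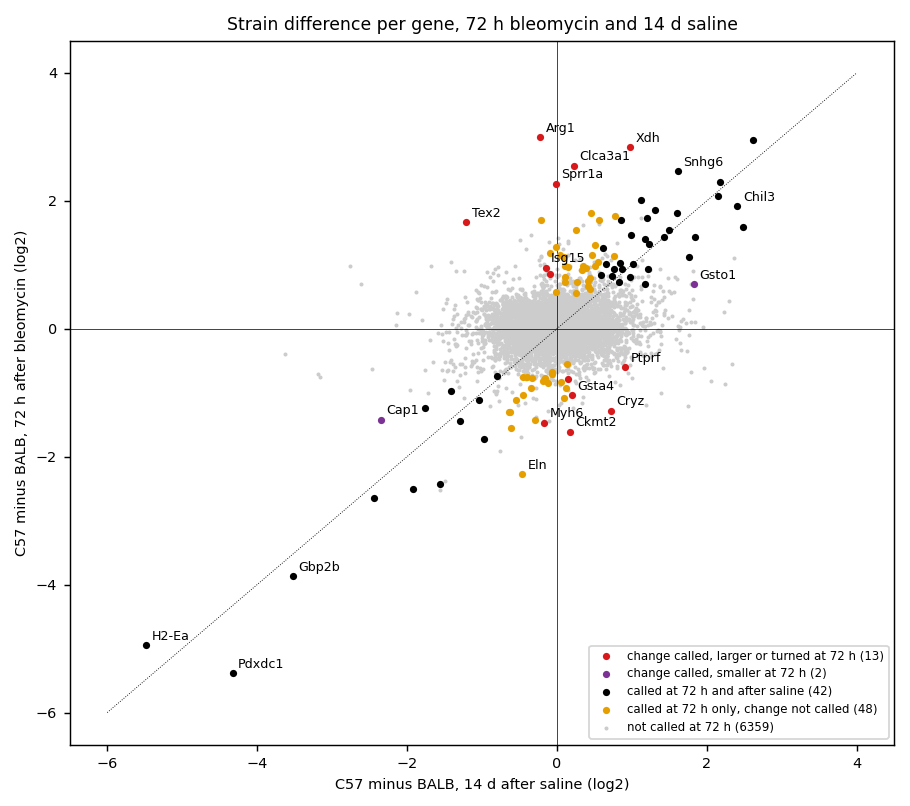
Each point is 1 of 6464 genes, with the C57BL/6J minus BALB/c log2 difference 72 h after bleomycin on the vertical axis and that 14 d after saline on the horizontal axis; colours mark the classes described in the text and the dotted line marks equal differences. H2-Ea, Pdxdc1 and Gbp2b lie near the line at the lower left, while Arg1, Clca3a1 and Sprr1a lie high above a saline difference near 0.

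Among the 13 genes whose strain difference changed, 7 had a higher and 6 a lower difference at 72 h than after saline. Arg1, which splits arginine into ornithine and urea and marks alternatively activated macrophages in mice, read 1168 and 1619 in C57BL/6J lungs at 72 h, against 74.7 and 112 in BALB/c lungs. After saline it read 88.4 and 110 in C57BL/6J lungs and 90.1 and 181 in BALB/c lungs. High Arg1 was thus seen on the C57BL/6J bleomycin arrays and not on the other 6, with no overlap at 72 h. On the log2 scale, after adding 92 to every intensity, the 72 h difference was 3.0 ± 0.40 (SE from limma, n = 2 arrays each, adjusted p = 0.000241), and the change against saline was 3.22 ± 0.57 (adjusted p = 0.0063). The Arg1 difference was 1.21 at 24 h after bleomycin, where it was not called (adjusted p = 0.189), and 3.54 at 14 d (adjusted p = 3.16e-05). In whole lung, fewer cells of a type and less RNA per cell cannot be told apart.

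Clca3a1, of the family of regulators of calcium-activated chloride channels, read 1771 and 2641 in C57BL/6J lungs at 72 h, against 298 and 291 in BALB/c lungs. On the saline arrays it read 133 and 127 in C57BL/6J lungs and 115 and 83.7 in BALB/c lungs. All 4 bleomycin arrays were above all 4 saline arrays, and the C57BL/6J pair stood well above the BALB/c pair. The 72 h difference was 2.54 ± 0.25 and its change 2.32 ± 0.36 (limma adjusted p = 6.54e-06 and 0.00334). This change was also called when the saline arrays of 24 h were the baseline (limma adjusted p = 0.0269), the only one of the 19 probe sets for which that held. Sprr1a, a precursor of the cornified envelope of squamous epithelium, read 1927 and 1904 in C57BL/6J lungs, against 246 and 424 in BALB/c lungs. Its saline arrays read 500 and 395 in C57BL/6J and 476 and 425 in BALB/c, so the strains overlapped without the drug. The 72 h difference of Sprr1a was 2.27 ± 0.30 and its change 2.28 ± 0.42 (limma adjusted p = 0.000193 and 0.00734).

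Xdh, which oxidises purines to uric acid, was higher in C57BL/6J lungs under both treatments, and the gap was wider after bleomycin. It read 3169 and 2891 in C57BL/6J lungs at 72 h, against 317 and 378 in BALB/c lungs. After saline it read 1771 and 2100 in C57BL/6J lungs, against 1317 and 653 in BALB/c lungs. The C57BL/6J bleomycin arrays lay above their saline pair, whereas the BALB/c bleomycin arrays lay below theirs. The difference was 2.83 ± 0.26 at 72 h and 0.98 ± 0.26 after saline, with a change of 1.85 ± 0.37 (limma adjusted p = 3.43e-06, 0.0189 and 0.0117). Leaving out BALB/c bleomycin array a, C57BL/6J saline array a or BALB/c saline array a ended the call of the Xdh change, as did the saline arrays of 24 h as baseline (limma adjusted p = 0.079).

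Tex2 turned round against the 14 d saline arrays. It read 688 and 515 in C57BL/6J lungs at 72 h, against 110 and 141 in BALB/c lungs. The saline values were 195 and 171 in C57BL/6J lungs, against 450 and 655 in BALB/c lungs. The strain with the higher Tex2 was C57BL/6J at 72 h and BALB/c 14 d after saline, without overlap in either comparison. On the saline arrays of 24 h, however, Tex2 read 491 and 321 in C57BL/6J lungs, against 126 and 234 in BALB/c lungs, the same order as at 72 h, a difference that was not called (limma adjusted p = 0.134). The differences were 1.66 ± 0.29 at 72 h and -1.21 ± 0.29 after saline (limma adjusted p = 0.00413 and 0.0104), and the change was 2.88 ± 0.41 (adjusted p = 0.00255). Against the 24 h saline arrays the change of Tex2 was 0.78 and not called (adjusted p = 0.448). The 72 h call of Tex2 was lost without C57BL/6J array a or without BALB/c array a.

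Ptprf, a receptor tyrosine phosphatase of epithelial cells, turned in the other direction. It read 2115 and 2090 in C57BL/6J lungs at 72 h, against 3109 and 3372 in BALB/c lungs. On the saline arrays Ptprf read 3744 and 3748 in C57BL/6J lungs, against 1885 and 2032 in BALB/c lungs. The differences were -0.60 ± 0.13 at 72 h and 0.91 ± 0.13 after saline (limma adjusted p = 0.0218 and 0.000322), with a change of -1.51 ± 0.19 (adjusted p = 0.00216). The 72 h call of Ptprf was lost whichever of the 4 arrays was left out, and under quantile normalization.

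The other genes with a higher difference at 72 h were Isg15, described with the interferon genes below, and Fggy, of the carbohydrate kinase family. Fggy read 644 and 657 in C57BL/6J lungs at 72 h, against 350 and 286 in BALB/c lungs, and after saline 697 and 689 in C57BL/6J lungs, against 695 and 799 in BALB/c lungs. The low values were those of BALB/c after bleomycin. Its change of 0.96 ± 0.26 lay at the threshold (limma adjusted p = 0.0491) and was not called under 16 of 21 alternatives. On the saline arrays of 24 h Fggy was higher in C57BL/6J by 0.72 (limma adjusted p = 0.0452).

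Besides Ptprf and the muscle genes Myh6 and Ckmt2, the genes with a lower difference at 72 h were Gsta4, Cryz and Zfp467. Gsta4, a glutathione transferase that detoxifies products of lipid peroxidation, read 386 and 265 in C57BL/6J lungs at 72 h, against 756 and 763 in BALB/c lungs. Saline values of Gsta4 were 604 and 650 in C57BL/6J lungs and 553 and 514 in BALB/c lungs. The 72 h groups did not overlap, and the C57BL/6J bleomycin arrays were the lowest of the 8. The 72 h difference of Gsta4 was -1.04 ± 0.18 and the change -1.24 ± 0.25 (limma adjusted p = 0.00309 and 0.0117). Without C57BL/6J array b at 72 h neither was called, and the change was not called under 6 of 21 alternatives. Cryz, a quinone reductase, had a change of -2.0 ± 0.45, but its 72 h difference of -1.28 ± 0.32 (limma adjusted p = 0.0489) was not called under 13 of 19 alternatives. On the saline arrays of 24 h the Cryz difference was -1.16 and not called (limma adjusted p = 0.0633), which left a change of -0.13 (adjusted p = 0.946), and the change was not called under 8 of 21 alternatives. The zinc finger gene Zfp467 read 213 and 204 in C57BL/6J lungs at 72 h, against 458 and 394 in BALB/c lungs, with a change of -0.93 ± 0.23 (limma adjusted p = 0.0361). The 72 h call of Zfp467 was lost whichever of the 4 arrays was left out, and its change was not called under 10 of 20 alternatives.

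**Figure D2:**
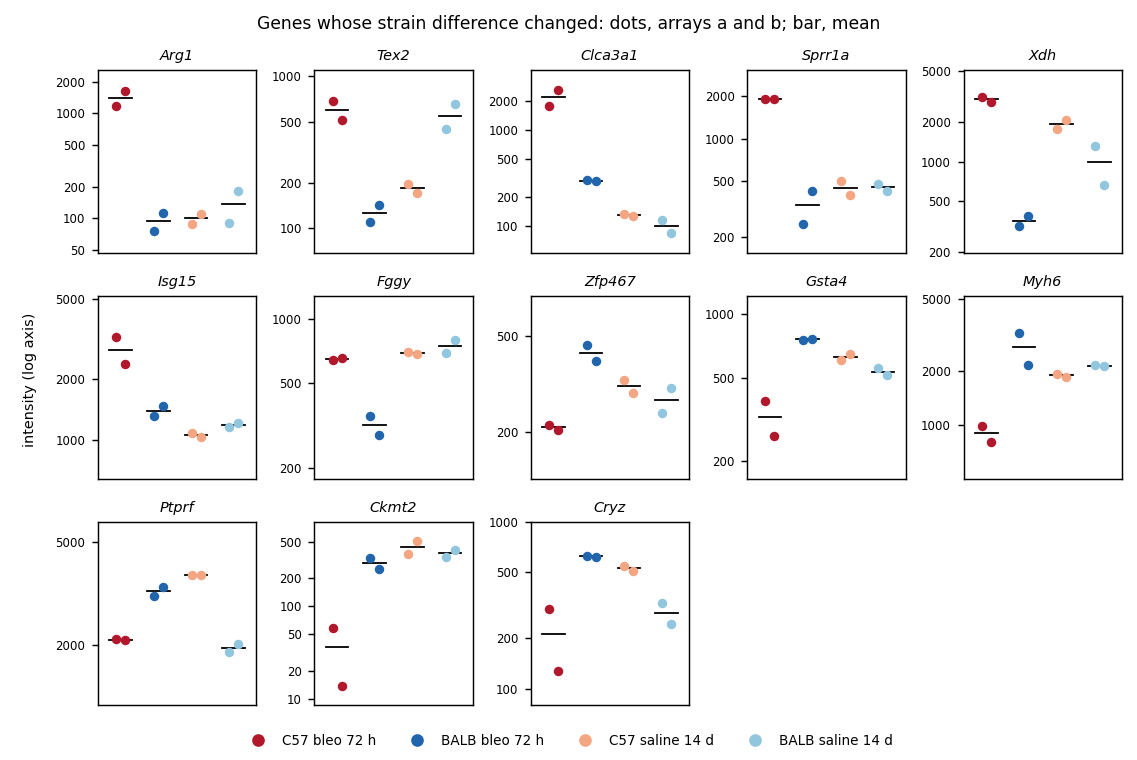
Intensity (log axis) of the 13 genes whose strain difference changed, 1 panel per gene, with a dot per array and a bar at the mean of the 2 arrays for C57BL/6J and BALB/c lungs 72 h after bleomycin and 14 d after saline. Arg1 reads 1168 and 1619 in C57BL/6J bleomycin lungs and at most 181 in the other groups, and Tex2 and Ptprf change order between treatments.

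The choice of saline arrays mattered for these calls. Against the mean of the saline strain differences at 24 h and 14 d, 9 of the 19 probe sets still had a called change. That comparison called 69 probe sets, or 0.792%. It reuses the 72 h arrays and the 14 d saline arrays by which the 19 were chosen, so the 9 are not independent support. Against the saline arrays of 24 h alone, 1 of the 19 did, in a comparison that called 3 probe sets, or 0.0344%. All 19 changes had the same sign against the 24 h baseline. Both changes contain the same bleomycin arrays of 72 h, so this agreement is not independent support. It was also seen in 58 of the 60 unresolved probe sets. Several of the 19 changes were smaller against the 24 h baseline. Among those named above, the log2 change was -0.13 for Cryz, 0.14 for Fggy, -0.38 for Zfp467, -0.55 for Myh6, -0.58 for Gsta4, -0.61 for Ckmt2 and 0.78 for Tex2, with limma adjusted p of 0.328 or more in each. The change of Arg1 was 2.11 against that baseline (limma adjusted p = 0.138) and that of Ptprf -0.95 (adjusted p = 0.0647). Sprr1a had 1.80, Xdh 1.72 and Isg15 0.99 (limma adjusted p = 0.106, 0.079 and 0.0955), and none of them was called. Clca3a1 had 2.40 and was called (limma adjusted p = 0.0269). The C57BL/6J saline arrays of 24 h had maximum intensities of 78640 and 43230. Those of the 4 bleomycin arrays at 72 h lay between 12510 and 14980. The Gapdh ratio of these saline arrays was 1.623 and 1.065, against 0.7355 and 0.7059 on the BALB/c saline arrays of 24 h. The summed intensity of the alveolar type 2 list was 201200 and 150500 on the C57BL/6J pair, against 56620 and 68470 on the BALB/c pair. Comparisons with the saline arrays of 24 h are thus less certain, and the part of these features was not tested.

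The differences already present on the saline arrays comprised 43 probe sets higher and 19 lower in C57BL/6J. Their median absolute difference was 1.43 on the log2 scale at 72 h, and the median after saline, in the same direction, was 1.26. All 62 had the same sign at 24 h after bleomycin and 60 had it at 14 d, with 48 called at 24 h, in a comparison with 1.87% called, and 46 called at 14 d, in a comparison with 15.7% called. No array is shared between these 3 bleomycin comparisons.

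H2-Ea was lower in C57BL/6J lungs under both treatments. It encodes the alpha chain of the class II molecule I-E, which mice of the C57BL/6 haplotype are known to lack. It read 51.7 and 37.2 in C57BL/6J lungs at 72 h, against 3833 and 4413 in BALB/c lungs. After saline it read 25.6 and 57.6 in C57BL/6J lungs, against 5854 and 5840 in BALB/c lungs. The strains were far apart under both treatments, with differences of -4.95 ± 0.28 at 72 h and -5.49 ± 0.28 after saline (limma adjusted p = 5.48e-09 and 1.98e-09). The change of 0.54 ± 0.39 was not called. H2-Ea was the only one of 15 tested class II presentation genes called at 72 h, where 1.62% of all genes were called.

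Gbp2b, an interferon-induced guanylate-binding protein, read 10.95 and 6.42 in C57BL/6J lungs at 72 h, against 1147 and 1655 in BALB/c lungs. Its saline values were 11.7 and 12.6 in C57BL/6J lungs, against 1013 and 1201 in BALB/c lungs. The C57BL/6J arrays stayed near the bottom of the scale under both treatments, and the 72 h difference was -3.87 ± 0.23 (limma adjusted p = 8.25e-09). The added 92 sets a floor to low values, so such differences understate the ratio of the intensities. Fbp2, the muscle form of fructose-bisphosphatase, read 31.1 and 28.4 in C57BL/6J lungs at 72 h, against 518 and 851 in BALB/c lungs, a difference of -2.64 ± 0.27 (limma adjusted p = 1.01e-05).

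Pdxdc1, a gene with a pyridoxal-dependent decarboxylase domain, gave opposite results between probe sets. The brightest one read 35.7 and 37.2 in C57BL/6J lungs at 72 h, against 5583 and 4960 in BALB/c lungs, a difference of -5.38 ± 0.30. The other 2 Pdxdc1 probe sets were higher in C57BL/6J by 1.86 and 1.69 on the log2 scale (limma adjusted p = 1.31e-05 and 8.97e-05), so no direction can be given for the gene. Of the 105 genes called, 20 had another tested probe set, and in 5 of these another one pointed the other way. Ctse, a cathepsin, was likewise called in both directions, at 1.13 for its brightest probe set and -1.43 for a dimmer one.

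Lower in C57BL/6J under both treatments were also Alad, Baiap2l1, Erdr1, Ocel1 and Glo1. Alad, an enzyme of haem synthesis, read 1217 and 1260 in C57BL/6J lungs at 72 h, against 4047 and 4534 in BALB/c lungs, a difference of -1.72 ± 0.18 (limma adjusted p = 1.67e-05). Baiap2l1, which links actin to the curved membrane, read 357 and 426 in C57BL/6J lungs, against 2548 and 2468 in BALB/c lungs, a difference of -2.43 ± 0.25 (limma adjusted p = 1.3e-05). Neither gene overlapped between strains at 72 h or after saline. Erdr1 differed by -2.51 ± 0.39 and Ocel1 by -1.45 ± 0.13, and Glo1, which detoxifies methylglyoxal, by -1.11 ± 0.14. The Erdr1 probe set is one whose name ending marks possible cross-hybridisation within a family, so its value is uncertain.

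Higher in C57BL/6J under both treatments was Chil3, the chitinase-like lectin Ym1 that mouse macrophages secrete. It read 7714 and 6492 in C57BL/6J lungs at 72 h, against 1354 and 2398 in BALB/c lungs, and after saline 9606 and 7459 in C57BL/6J lungs, against 1687 and 1375 in BALB/c lungs. The strains did not overlap in either comparison, and the difference was 1.92 ± 0.26 at 72 h and 2.40 ± 0.26 after saline (limma adjusted p = 0.00034 and 2.41e-05). Chil3, like Arg1, marks alternatively activated macrophages in mice. Its change of -0.49 ± 0.37 was not called (limma adjusted p = 0.491), whereas that of Arg1 was.

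Qsox1, a sulfhydryl oxidase that forms disulfide bonds in secreted proteins, read 1883 and 2050 in C57BL/6J lungs at 72 h, against 312 and 347 in BALB/c lungs, a difference of 2.29 ± 0.22 (limma adjusted p = 5.96e-06). Slc15a2, a peptide transporter, differed by 1.86 ± 0.21 and Cxcl14, a chemokine of epithelia, by 1.43 ± 0.23. Snhg6, a host transcript of small nucleolar RNAs, differed by 2.46 ± 0.20 and Thumpd1, which assists tRNA acetylation, by 2.01 ± 0.19. Arl2bp, a partner of the small GTPase ARL2, differed by 2.07 ± 0.17 and Epb41l4a, of the band 4.1 family, by 1.81 ± 0.21. A probe set annotated to Mir686 differed by 2.95 ± 0.24, but an array of this kind does not measure the mature miRNA. None of the 16 genes with the highest and lowest differences in this class lost its 72 h call under any of the 19 alternatives.

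**Figure D3:**
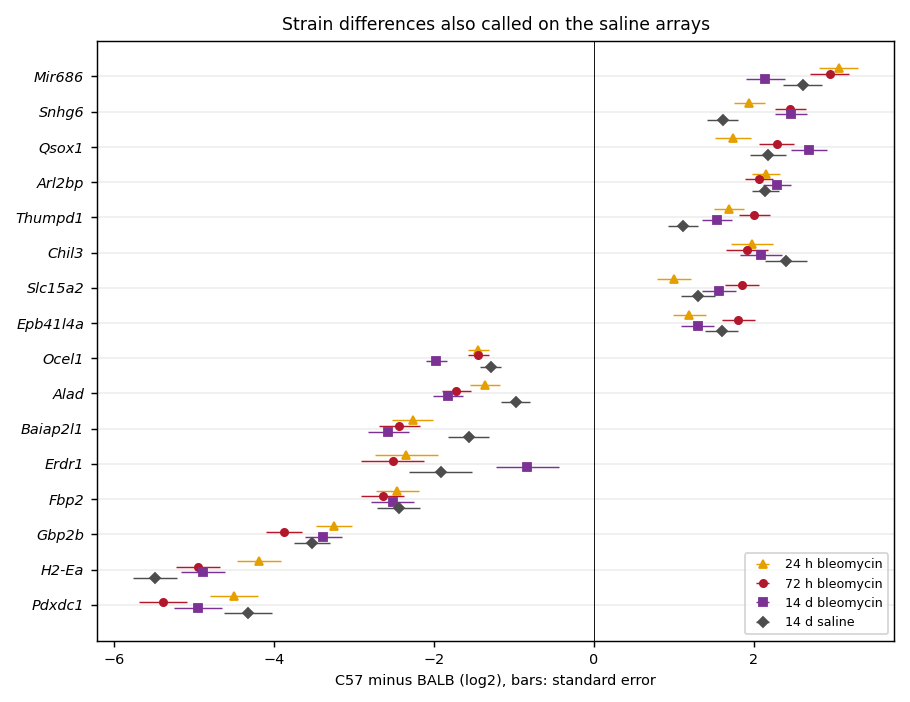
C57BL/6J minus BALB/c log2 differences, with standard errors from limma, of the 8 highest and 8 lowest genes called both 72 h after bleomycin and 14 d after saline, shown 24 h, 72 h and 14 d after bleomycin and 14 d after saline. H2-Ea lies between -5.49 and -4.19 and Chil3 between 1.92 and 2.40 in all 4 comparisons, while Erdr1 moves to -0.83 at 14 d after bleomycin.

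In 2 genes the difference seen 14 d after saline was smaller 72 h after bleomycin. Gsto1, an omega-class glutathione transferase, read 4724 and 4954 in C57BL/6J lungs at 72 h, against 3292 and 2659 in BALB/c lungs, and after saline 4054 and 3667 in C57BL/6J lungs, against 1044 and 1000 in BALB/c lungs. The BALB/c arrays lay further apart between treatments than the C57BL/6J arrays. Its difference was 0.69 ± 0.13 at 72 h and 1.82 ± 0.13 after saline, with a change of -1.13 ± 0.19 (limma adjusted p = 0.00497). Against the saline arrays of 24 h, where Gsto1 differed by 0.80, the change was -0.11 (limma adjusted p = 0.873), and against the mean of both saline times it was not called either (adjusted p = 0.0766). The 72 h call of Gsto1 was lost without C57BL/6J array a, C57BL/6J array b or BALB/c array b. Cap1, which binds actin monomers, differed by -1.43 ± 0.18 at 72 h and -2.35 after saline, and its change of 0.92 ± 0.25 (limma adjusted p = 0.0489) was not called under 14 of 21 alternatives and was 0.06 against the saline arrays of 24 h.

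Far more probe sets were called after saline and not at 72 h. Of 1224 such probe sets, 280 had a called change. Tgfb1, the profibrotic cytokine, read 667 and 511 in C57BL/6J lungs at 72 h, against 538 and 648 in BALB/c lungs, and after saline 2090 and 1485 in C57BL/6J lungs, against 445 and 579 in BALB/c lungs. It was called after saline, at 1.63 ± 0.32 (limma adjusted p = 0.00337), and overlapped between strains at 72 h, where the difference was -0.01 ± 0.32. The change of Tgfb1 was -1.64 ± 0.45 and missed the threshold (limma adjusted p = 0.0525). Col1a1, a chain of type I collagen, differed by 1.25 ± 0.29 after saline (limma adjusted p = 0.00818) and 0.41 ± 0.29 at 72 h (adjusted p = 0.685). Cdkn1a, the p21 inhibitor of cell cycle kinases, differed by 1.26 ± 0.27 after saline and 0.07 ± 0.27 at 72 h. Their changes were not called, with limma adjusted p of 0.249 for Col1a1 and 0.0938 for Cdkn1a. On the saline arrays of 24 h none of these genes was called. There Tgfb1 differed by 0.42, Col1a1 by 0.45 and Cdkn1a by -0.21 (limma adjusted p = 0.593, 0.489 and 0.793).

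Other genes of the fibrotic response were not called between strains at 72 h. Fn1, fibronectin, differed by 0.00 ± 0.37, Col3a1 by 0.19 ± 0.25 and Acta2, the smooth muscle actin of myofibroblasts, by -0.17 ± 0.28. Blmh, the hydrolase that inactivates bleomycin, read 1899 and 1843 in C57BL/6J lungs, against 1743 and 1627 in BALB/c lungs, a difference of 0.14 ± 0.15 (limma adjusted p = 0.841). Timp1, an inhibitor of matrix proteases, read 6046 and 4796 in C57BL/6J lungs, against 2630 and 3694 in BALB/c lungs, and was not called either, at 0.77 ± 0.44 (limma adjusted p = 0.565). The collagen list also holds genes that are not collagens, such as Serpinh1 and Lox. Of its 31 tested genes 0 were called in limma at 72 h, where 1.62% of all genes were called. An unadjusted limma p under 0.05 was reached by 6 of the 31, beside 707 of all 6464 genes. After saline 7 of the 31 were called higher and 1 lower in C57BL/6J, where 9.42% of all genes were called higher and 5.41% lower. The median difference of the collagen list was 0.17 at 72 h and 0.45 after saline, beside medians of 0.01 and -0.01 over all 6464 genes.

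Some interferon-induced genes were higher in C57BL/6J lungs at 72 h. Of 28 tested, 5 were called higher (Rsad2, Isg15, Usp18, Ifit3 and Ifit1) and 1 lower (Ifi202b), and 22 were not called. Among all genes, 1.02% were called higher and 0.603% lower. The median of the list was 0.20, beside 0.01 over all genes. It was -0.01 on the 14 d saline arrays, with 3 called higher, where 9.42% of all genes were called higher. On the 24 h saline arrays the median of the list was 0.20, with 0 called in limma. There 5 of the list had an unadjusted limma p under 0.05, beside 939 of all 6464 genes. Leaving out an array lowered the number called higher to 1 without C57BL/6J array a, 3 without C57BL/6J array b, 1 without BALB/c array a and 3 without BALB/c array b.

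Isg15, a ubiquitin-like protein, read 3221 and 2391 in C57BL/6J lungs at 72 h, against 1311 and 1473 in BALB/c lungs. Isg15 read, after saline, 1090 and 1034 in C57BL/6J lungs and 1169 and 1213 in BALB/c lungs. The strain that was higher at 72 h was the lower one after saline, where the gene was not called. The 72 h difference was 0.95 ± 0.16 and the change 1.11 ± 0.23 (limma adjusted p = 0.00309 and 0.0133). Both calls of Isg15 were lost without C57BL/6J array a or without BALB/c array a at 72 h.

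Rsad2, the antiviral enzyme viperin, read 1440 and 1255 in C57BL/6J lungs at 72 h, against 427 and 377 in BALB/c lungs, with no overlap. The difference was 1.54 ± 0.25 (limma adjusted p = 0.00259), and its change of 1.29 ± 0.36 missed the threshold (adjusted p = 0.0538). Usp18, which removes ISG15 from proteins, read 2176 and 1842 in C57BL/6J lungs, against 893 and 1151 in BALB/c lungs, a difference of 0.92 ± 0.17 (limma adjusted p = 0.00795), which was lost without C57BL/6J array a or without BALB/c array a. Ifit3, whose product belongs to a family that restrains viral RNA translation, read 2997 and 2472 in C57BL/6J lungs, against 1046 and 1244 in BALB/c lungs. Its difference was 1.19 ± 0.25 (limma adjusted p = 0.0168), and its call was lost whichever of the 4 arrays was left out. Ifit1 of the same family, named after its value was seen, read 2073 and 1670 in C57BL/6J lungs, against 829 and 981 in BALB/c lungs (limma adjusted p = 0.0219). Ifi202b went the other way, at 14.5 and 32.7 in C57BL/6J lungs, against 127 and 278 in BALB/c lungs, a difference of -1.30 ± 0.29.

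For Isg15, Usp18, Ifit3 and Ifit1 the strain difference was higher at 24 h than at 72 h and below 0 at 14 d after bleomycin. The Isg15 difference was 1.58, 0.95 and -0.20 at 24 h, 72 h and 14 d. For Usp18 it was 1.44, 0.92 and -0.61, and the 14 d difference was called, lower in C57BL/6J (limma adjusted p = 0.0244). For Ifit3 it was 1.70, 1.19 and -0.05, and for Ifit1 1.87, 0.97 and -0.56. Rsad2 did not share this order, with 0.96, 1.54 and 0.57. Over the list, 11 were called higher and 0 lower at 24 h, 5 higher and 1 lower at 72 h, and 0 higher and 8 lower at 14 d. Among all genes, 1.24% were called higher at 24 h, and 5.46% higher and 10.4% lower at 14 d. Differences between the times were not tested.

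Promoters of these interferon-list genes are shown because such genes commonly carry an interferon-stimulated response element near their start. RefSeq promoters on build GRCm38.p6 were available for 4 of the 5, which are Rsad2 (chr12:26456403-26456702, minus strand), Isg15 (chr4:156200769-156201068, minus strand), Ifit3 (chr19:34583279-34583578, plus strand) and Ifit1 (chr19:34640639-34640938, plus strand). Each runs 5′ to 3′ from 250 bases before to 50 bases after the start of the gene, and capitals mark matches to GAAA, any 2 bases and GAAA again, or on the other strand TTTC, any 2 bases and TTTC.
Rsad2: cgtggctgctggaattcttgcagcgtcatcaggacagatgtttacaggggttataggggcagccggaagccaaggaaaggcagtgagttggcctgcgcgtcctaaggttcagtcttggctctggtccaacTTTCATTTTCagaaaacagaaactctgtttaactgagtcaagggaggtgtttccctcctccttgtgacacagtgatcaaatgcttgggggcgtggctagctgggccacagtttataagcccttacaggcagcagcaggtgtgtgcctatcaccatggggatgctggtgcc
Isg15: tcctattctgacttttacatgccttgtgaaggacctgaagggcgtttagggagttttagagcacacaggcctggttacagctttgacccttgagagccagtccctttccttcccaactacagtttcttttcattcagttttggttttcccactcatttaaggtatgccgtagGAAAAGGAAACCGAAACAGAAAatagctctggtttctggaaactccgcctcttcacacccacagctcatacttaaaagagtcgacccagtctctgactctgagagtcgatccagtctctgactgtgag
Ifit3: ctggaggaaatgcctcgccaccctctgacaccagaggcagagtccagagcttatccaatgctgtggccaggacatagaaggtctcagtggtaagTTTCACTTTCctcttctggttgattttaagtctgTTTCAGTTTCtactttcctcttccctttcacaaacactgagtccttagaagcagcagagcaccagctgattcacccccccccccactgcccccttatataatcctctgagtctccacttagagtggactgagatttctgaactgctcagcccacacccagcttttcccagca
Ifit1: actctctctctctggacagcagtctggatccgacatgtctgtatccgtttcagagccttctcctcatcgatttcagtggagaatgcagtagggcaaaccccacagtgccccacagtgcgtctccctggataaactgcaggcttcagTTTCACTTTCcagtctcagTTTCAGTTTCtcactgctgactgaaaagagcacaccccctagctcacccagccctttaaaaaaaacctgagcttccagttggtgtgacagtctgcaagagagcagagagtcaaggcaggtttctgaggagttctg

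Matches were found in all 4 windows: 1 in Rsad2, 3 overlapping ones in Isg15, and 2 each in Ifit3 and Ifit1. They began between 66 and 156 bases before the start. The motif occurred in 3.44% of the 32851 promoters in the table, in 3.8% of the tested genes with a promoter there, and in 12 of the 23 interferon-list genes with one. A match describes the letters of the reference strain and says nothing of binding in these lungs.

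Several cardiac muscle genes were lower in C57BL/6J lungs at 72 h. Mouse pulmonary veins are known to be sheathed in heart muscle, so whole lung carries such transcripts. Of 25 heart and skeletal muscle genes tested, 0 were called higher and 7 lower (Myh6, Myh7, Ckmt2, Myl4, Tnnc1, Tnni3 and Myl7), where 0.603% of all genes were called lower. The median of the list was -0.57. The summed intensity of the 25 genes was 15310 and 11890 in C57BL/6J lungs, against 27590 and 20970 in BALB/c lungs. On the 14 d saline arrays it was 26600 and 25010 in C57BL/6J lungs and 27060 and 25870 in BALB/c lungs, so the C57BL/6J bleomycin arrays had the lowest sums of the 8. On the 24 h saline arrays, whose C57BL/6J pair had the high maximum intensities given above, the strains also differed. The sum there was 19030 and 17280 in C57BL/6J lungs, against 30210 and 20820 in BALB/c lungs. There 4 of the 25 genes (Myh6, Myh7, Myl4 and Tnnc1) were called lower, where 1.08% of all genes were, and the median was -0.46. Without C57BL/6J array a the number called lower was 4, without C57BL/6J array b it was 3, and without BALB/c array a it was 2.

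Myh6, the alpha heavy chain of cardiac myosin, read 999 and 813 in C57BL/6J lungs at 72 h, against 3242 and 2172 in BALB/c lungs. After saline it read 1934 and 1852 in C57BL/6J lungs and 2145 and 2142 in BALB/c lungs. The 72 h difference was -1.47 ± 0.21 and the change -1.30 ± 0.29 (limma adjusted p = 0.000475 and 0.0235). The 72 h call of Myh6 held under all 19 alternatives, and its change was not called under 7 of 21. On the 24 h saline arrays Myh6 read 1210 and 1221 in C57BL/6J lungs, against 2943 and 1928 in BALB/c lungs, a difference of -0.92 ± 0.21 (limma adjusted p = 0.0221), and the change against those arrays was -0.55 (adjusted p = 0.464). Ckmt2, the mitochondrial creatine kinase of striated muscle, read 59.0 and 13.9 in C57BL/6J lungs, against 335 and 256 in BALB/c lungs, a difference of -1.61 ± 0.30 (limma adjusted p = 0.00799). It read 367 and 508 in C57BL/6J lungs after saline, against 338 and 410 in BALB/c lungs, and its change was -1.78 ± 0.43 (adjusted p = 0.032). The 72 h call of Ckmt2 was lost without C57BL/6J array b or without BALB/c array a, and its change was not called under 9 of 20 alternatives.

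Myh7, the beta heavy chain, differed by -1.55 ± 0.24 (limma adjusted p = 0.00125), and the atrial light chain Myl4 by -1.42 ± 0.27 (adjusted p = 0.0092). The troponin subunit Tnnc1 differed by -1.12 ± 0.22. On the 24 h saline arrays Myh7 differed by -1.12, Myl4 by -1.21 and Tnnc1 by -1.36, with limma adjusted p of 0.015, 0.0221 and 0.00147. Tnni3 and Myl7, named after their values were seen, differed by -0.93 ± 0.21 and -1.09 ± 0.25. Differences in the same direction were seen at the other bleomycin times, with 3 of the 25 genes called lower at 24 h, where 0.588% of all genes were, and 9 at 14 d, where 10.4% were. The part of differing amounts of muscle in the samples was not tested.

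**Figure D4:**
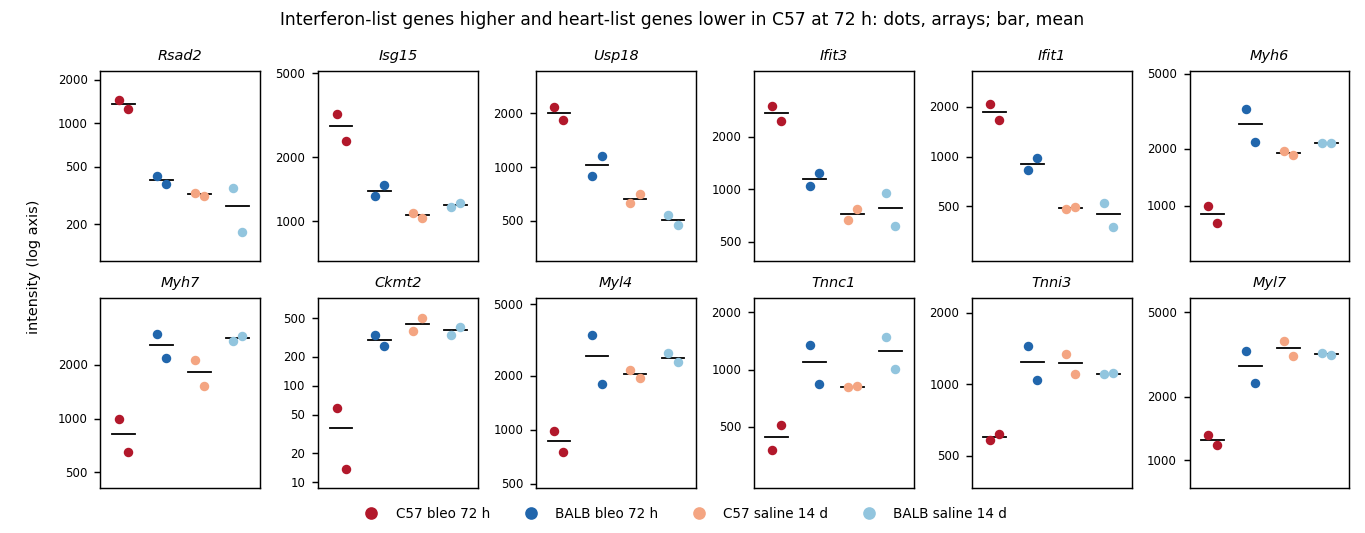
Intensity (log axis) of the 5 interferon-list genes called higher and the 7 heart-list genes called lower in C57BL/6J lungs at 72 h, with a dot per array and a bar at the mean of the 2 arrays for both strains 72 h after bleomycin and 14 d after saline. The genes were chosen by their calls at 72 h, so the separation of the C57BL/6J and BALB/c bleomycin arrays is no further evidence. For Myh6 the C57BL/6J bleomycin arrays at 999 and 813 are the lowest of the 8.

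In the list of type 2 activation and chitinase-like genes, 3 of 13 tested were called higher at 72 h (Arg1, Clca3a1 and Chil3) and 0 lower, where 1.02% of all genes were called higher. Clca3a1 was counted as listed, and a link of this gene to type 2 activation was not tested. Chil3 was also called higher after saline. Ccl17, a chemokine that draws T cells, read 1103 and 1163 in C57BL/6J lungs, against 379 and 242 in BALB/c lungs, and missed the threshold at 1.62 ± 0.44 (limma adjusted p = 0.0771). Of 25 macrophage genes 1 was called higher, beside the same 1.02% of all genes, the scavenger receptor Marco, at 215 and 206 in C57BL/6J lungs, against 9.97 and 14.6 in BALB/c lungs, and after saline 244 and 199 in C57BL/6J lungs, against 22.6 and 16.2 in BALB/c lungs. The Marco difference was thus present after saline, and its 72 h call (limma adjusted p = 0.0364) was lost under 10 of 19 alternatives. The summed intensity of the macrophage list was 54260 and 57240 in C57BL/6J lungs, against 43530 and 53130 in BALB/c lungs.

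Of 19 injured epithelium genes 4 were called higher and 0 lower, beside 1.02% and 0.603% of all genes. Beside Sprr1a they were Ly6d, Sfn and Hbegf. Ly6d, a surface protein of stratified epithelia, read 862 and 812 in C57BL/6J lungs at 72 h, against 98.4 and 324 in BALB/c lungs, a difference of 1.72 ± 0.33 (limma adjusted p = 0.00835). Sfn, a 14-3-3 protein of epithelial cells, differed by 1.43 ± 0.30 both at 72 h and after saline. Hbegf, a ligand of the EGF receptor, read 1603 and 1729 in C57BL/6J lungs, against 855 and 967 in BALB/c lungs, a difference of 0.81 ± 0.16 (limma adjusted p = 0.00893). The count fell to 1 without C57BL/6J array a, without C57BL/6J array b or without BALB/c array a.

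Of 41 genes of oxidant defence 3 were called higher (Xdh, Gclc and Gsto1) and 1 lower (Gsta4), where 1.02% of all genes were called higher and 0.603% lower. Gclc, the catalytic subunit of the enzyme that starts glutathione synthesis, read 3256 and 3050 in C57BL/6J lungs at 72 h, against 1305 and 1218 in BALB/c lungs. Gclc read, after saline, 1841 and 2114 in C57BL/6J lungs, against 1440 and 1093 in BALB/c lungs. The difference was 1.26 ± 0.18 at 72 h and 0.62 ± 0.18 after saline (limma adjusted p = 0.000692 and 0.0329), and the change was not called (adjusted p = 0.168). Of 19 p53 and DNA damage genes 2 were called higher, against the same 1.02%, Perp at 0.95 ± 0.19 and Gadd45g at 1.14 ± 0.27, and both calls were lost whichever of the 4 arrays was left out. Of 18 genes listed as varying between inbred strains, 1 was called higher and 7 lower, beside 1.02% and 0.603% of all genes.

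**Figure D5:**
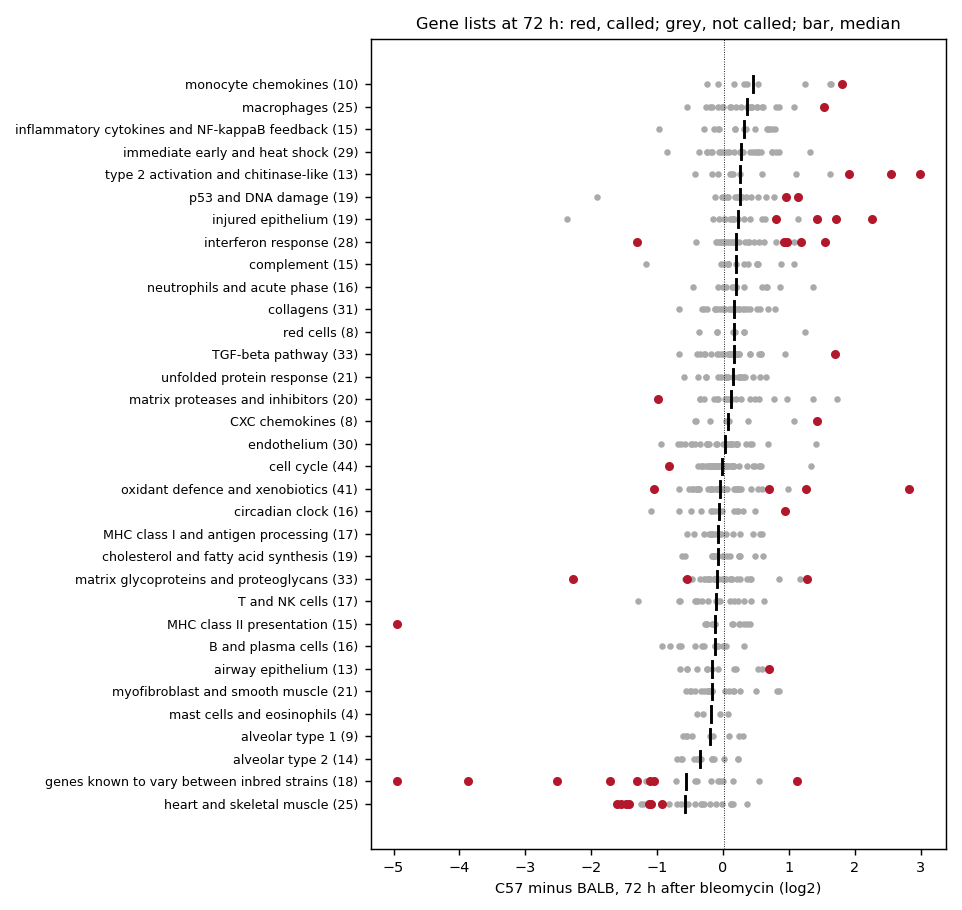
C57BL/6J minus BALB/c log2 difference 72 h after bleomycin for the tested members of each gene list (number in brackets), with called genes in red, others in grey, a bar at the list's median and a dotted line at the median of all genes. The heart and skeletal muscle list has its median at -0.57 and 7 called genes, all lower. The collagen list has none called, where 1.62% of all genes were called.

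Among the 48 genes that could not be resolved, 28 were higher and 20 lower in C57BL/6J at 72 h, and 40 had the same sign 14 d after saline. On the saline arrays of 24 h, 5 of the 48 were called in the same direction, in a comparison that called 158 of 6464 genes. Clip4, a protein that binds microtubules, read 857 and 770 in C57BL/6J lungs at 72 h, against 165 and 184 in BALB/c lungs, and after saline 283 and 438 in C57BL/6J lungs, against 176 and 160 in BALB/c lungs. Its difference was 1.76 ± 0.30 (limma adjusted p = 0.00309) and was called under all 19 alternatives. Clip4 was also called on the 24 h saline arrays, where it was higher in C57BL/6J by 1.56 (limma adjusted p = 0.00722). Slc6a2, the noradrenaline transporter, read 492 and 496 in C57BL/6J lungs, against 93.6 and 83.6 in BALB/c lungs, and after saline 252 and 333 in C57BL/6J lungs, against 314 and 391 in BALB/c lungs. Its change of 1.91 ± 0.53 missed the threshold (limma adjusted p = 0.0531), and its 72 h call was lost whichever of the 4 arrays was left out.

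Fst, follistatin, which binds activin, read 366 and 208 in C57BL/6J lungs, against 24.2 and 19.8 in BALB/c lungs, a difference of 1.70 ± 0.34 (limma adjusted p = 0.0119). The Fst difference was 0.12 at 24 h and 3.02 at 14 d after bleomycin. The matrix glycoprotein tenascin C, Tnc, read 1008 and 612 in C57BL/6J lungs, against 303 and 242 in BALB/c lungs, a difference of 1.28 ± 0.28 (limma adjusted p = 0.0248). The calls of Fst and Tnc were both lost without C57BL/6J array a, BALB/c array a or BALB/c array b. The monocyte chemokine Ccl7 read 1212 and 701 in C57BL/6J lungs, against 171 and 229 in BALB/c lungs, and its call (limma adjusted p = 0.0482) was lost under 14 of 19 alternatives. Ccl2, of the same family, read 2484 and 1363 in C57BL/6J lungs, against 395 and 699 in BALB/c lungs, and was not called at 1.64 ± 0.72 (limma adjusted p = 0.393). Neither chemokine overlapped between the strains, but with 2 arrays each this is weak evidence. The share of all genes without overlap was not counted. Ch25h, which makes 25-hydroxycholesterol, differed by 1.31 ± 0.32 and lost its call under 13 of 19 alternatives.

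Eln, elastin, read 1480 and 1067 in C57BL/6J lungs at 72 h, against 5974 and 6953 in BALB/c lungs, by its brightest probe set, a difference of -2.28 ± 0.44 (limma adjusted p = 0.00987), which was lost without C57BL/6J array b, BALB/c array a or BALB/c array b. Another Eln probe set read 1241 and 905 in C57BL/6J lungs, against 319 and 585 in BALB/c lungs, at 1.13 ± 0.36 (adjusted p = 0.158). After saline the brightest Eln probe set read 7764 and 2894 on the C57BL/6J arrays, so the pair differed widely, and no direction is given for elastin. Irx3, a homeobox factor, read 778 and 684 in C57BL/6J lungs at 72 h, against 1956 and 1897 in BALB/c lungs, a difference of -1.30 ± 0.28 (limma adjusted p = 0.0187). Its 72 h call was lost whichever of the 4 arrays was left out.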

How the data were processed

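Lung total RNA was measured on 24 arrays, 2 for each of 12 groups of strain, treatment and time taken from the titles. As deposited, each value is the linear intensity of a probe set. Their trimmed mean (2nd to 98th percentile) was 799.9 on every array, from which scaling before deposit is inferred; the summarising algorithm is not stated by the labels or the file. The members and gene lists were chosen with earlier results of these data known. Of 12488 probe sets, 66 controls were left out. Those above 225.7, the 40th percentile, on at least 2 arrays were tested (8710, of which 7812 had 1 gene name). Values were used as log2(intensity + 92). A mean per group was fitted (limma 3.58.1, R 4.3.3; 12 residual degrees of freedom, variance trend, Benjamini-Hochberg over all probe sets tested, two-sided). The method was tested on simulated data. Genes are represented by their brightest probe set with 1 name. Named genes were, by size of difference, 8 per direction already present, 10 whose difference changed and 6 unresolved, up to 4 per list by p, and fixed genes. Spp1 was not analysed here. The number of arrays limits the precision. Titles were followed where descriptions of saline groups differ. Alternatives are given in the closing section.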

Additional observations from a re-analysis of the deposited data

Results flagged for a closer look

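In 15 genes called at 72 h the strain difference after bleomycin differed from that after saline by the interaction contrast in limma. The changes, C57BL/6J minus BALB/c at 72 h minus the same after saline, on the log2 scale, were 3.22 for Arg1, 2.88 for Tex2, 2.32 for Clca3a1, 2.28 for Sprr1a, 1.85 for Xdh, 1.11 for Isg15, 0.96 for Fggy and 0.92 for Cap1. The negative ones were -0.93 for Zfp467, -1.13 for Gsto1, -1.24 for Gsta4, -1.30 for Myh6, -1.51 for Ptprf, -1.78 for Ckmt2 and -2.0 for Cryz. Adjusted p-values lay between 0.00216 for Ptprf and 0.0491 for Fggy. Treatment and time of harvest cannot be told apart in them.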

How the results depend on the processing

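Quantile normalization, the offsets 46 and 276, no filter, a filter at 563.3 (60th percentile), no variance trend, and leaving out the 4 saline arrays of 72 h or the 2 C57BL/6J saline arrays of 24 h gave between 122 and 155 calls at 72 h, against 143. No named gene called at 72 h turned its direction under any alternative run. For the gene lists, leaving out these saline arrays was chosen after seeing the data and left 5 interferon genes higher and 6 or 7 heart genes lower. Array weights gave 518 calls at 72 h and 1030 changes, with 141 probe sets changed and 137 already present. The 8 arrays alone gave 724 changes and 59 probe sets changed. With the saline arrays of 24 h as the baseline 3 changes were called, and with the mean of both saline times 69. The cause of these shifts was not tested. Leaving out 1 array gave between 54 and 143 calls at 72 h, 427 and 1198 after saline and 79 and 400 for the change, with 5 to 21 probe sets changed and 32 to 50 already present. The left-out array's partner was then assumed to vary like the other groups. The array letter does not pair the strains: the correlation of a minus b was 0.0607 at 72 h and 0.00502 after saline. With the letter as a replicate block, 134 probe sets were called at 72 h, 1244 after saline and 288 for the change.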
